A study of Pinus pinaster with 24 samples.

Results

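In sulfur-starved maritime pine seedlings, the response of roots to a day of sulfate was set against the response of the 3 shoot organs. For each transcript feature the quantity of interest was the sulfate effect in roots (sulfate minus control, on a log2 scale) minus the mean of the sulfate effects in stem, needles and cotyledons, so that a value above 0 means a weaker fall or a stronger rise in roots. All 24 libraries of the series enter it, by the organ and treatment in their titles. Of 67271 features, 47248 reached a level of 1 in 3 or more of the 6 libraries for each organ and were tested; the other 20023 were not. The sulfate groups, given 0.5 mM K2SO4, were roots, stem, needles and cotyledons, and the control groups, given 1 mM KCl, were the same organs, each of the 8 groups with 3 libraries. All seedlings were Pinus pinaster of the Segura-Alcaraz provenance, 4 months old. All of them, controls included, had been watered weekly with 0.3 mM KNO3 for the preceding 3 months to bring on sulfur deficiency, so the controls are starved plants and no never-starved group is part of the design. Organs were taken 24 h after watering, and each library is a pool of organs from 13 to 14 seedlings.

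Roots take up sulfate from the soil and load it into the xylem, which carries it to the shoot, where leaves reduce much of it to sulfide and build it into cysteine, methionine and glutathione. In Arabidopsis, lack of sulfur raises the transcripts of sulfate transporters and of enzymes that release or spare sulfur, and renewed sulfate lowers them again. For each feature, the contrast asks whether sulfate changes its level alike in pine roots and in the mean of the shoot organs. The deposited identifiers are not paired with gene names, so no feature below carries a known function, and the markers that define each organ could not be looked up.

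Levels are given as normalized CPM, reads scaled to a common library total with a further factor per library that the authors applied. Libraries held 92664463 to 195881948 recovered reads, and the deepest was cotyledon control 1. Spearman correlation across the tested features, which are not independent replicates, ran from 0.958 to 0.990 for libraries of a group, from 0.947 to 0.984 for sulfate and control libraries of the same organ, and from 0.670 to 0.928 across organs. The tissue is bulk, so fewer cells of a type and less RNA per cell cannot be told apart.

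Most features whose sulfate response differed between roots and shoot fell in all 3 shoot organs and, by estimate, fell less in roots. Of 47248 features, 136 (0.288%) passed the test of the difference (limma over all 24 libraries, Benjamini-Hochberg adjusted p under 0.05). The difference was above 0 in 124 of them (0.262% of those tested) and below 0 in 12 (0.0254%). The median difference was 1.29 on the log2 scale in the 124, with a range of 0.39 to 2.68, and -0.71 in the 12, with a range of -1.01 to -0.50, beside 0.0018 over all features tested. It was at least 2-fold in 99 of the 124 and in 1 of the 12, PpCO2_76120. The median of the 124 was 1.66 with a pseudocount of 0.1, 0.90 with a pseudocount of 2 and 1.77 with edgeR. The 124 form 55 runs of neighbouring identifiers with correlated levels and the 12 form 10, so features of a run are not separate observations. Runs with nearby identifiers may not be separate either. In all 136 the 3 sulfate pools and the 3 control pools did not overlap in root level minus mean shoot level, which held for 15.5% of all features tested. The test averages these same differences, so the separation follows largely from the selection and is a description. Numbers of features above 0 stood at 80 without root sulfate 1, 70 without root sulfate 2 and 76 without root control 3, and between 91 and 155 without any other single library. All 136 kept their direction in each of those 24 fits.

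**Figure D1:**
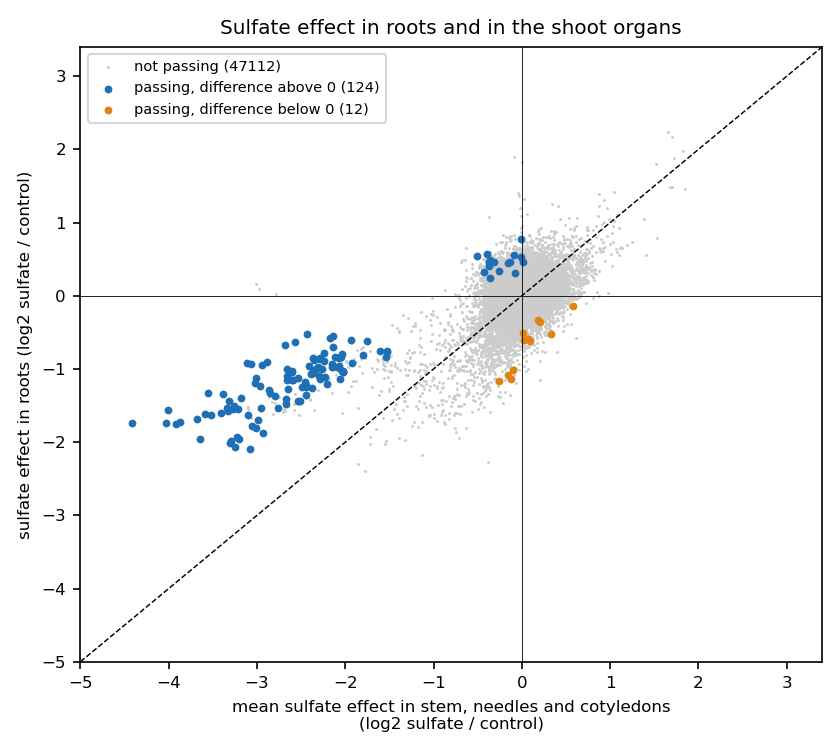
Sulfate effect in roots (y axis, log2 sulfate over control) against the mean effect in stem, needles and cotyledons (x axis) for 47248 features, with the 124 features whose difference passed above 0 in blue and the 12 below 0 in orange. The dashed line marks equal effects; 108 of the blue features lie at the lower left, above the line, and 16 lie above 0 in roots.

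Within the 124 features, 2 separate patterns were seen. In 108 features the sulfate effect was below 0 in roots as well, between -2.09 and -0.52, while the shoot mean lay between -4.42 and -1.53. All 108 fell in stem, in needles and in cotyledons when each organ was tested by itself in the same fit, against 0.692%, 0.885% and 0.593% of all features, and 88 of them also fell in roots (limma, Benjamini-Hochberg adjusted p under 0.05), against 0.745%. The other 20 did not pass in roots, which does not show that they were unchanged there. Median effects of the 108 were -1.13 for roots, -2.57 for stem, -2.85 for needles and -2.20 for cotyledons. Expressed as the level that sulfate left, the median feature stood at 39.3% of the control level for roots, 10.9% for stem, 6.60% for needles and 14.3% for cotyledons. Median levels were 2.48 in sulfate roots against 6.23 in control roots, 0.707 in sulfate stem against 9.28 in control stem, 0.711 in sulfate needles against 12.4 in control needles, and 1.45 in sulfate cotyledons against 12.5 normalized CPM in control cotyledons. Roots had the smallest fall of the 4 organs in 107 of the 108, with PpCO2_102494 as the exception. Over the 124 features, all 3 sulfate values lay below all 3 control values in 108 for roots, 116 for stem, 117 for needles and 114 for cotyledons, against 9.12%, 8.47%, 7.01% and 7.27% of all features tested. In roots 14 of the 124 had all sulfate values above all control values, against 9.51%. Among the shoot organs the deepest fall of the 108 was in needles for 79 features, in stem for 25 and in cotyledons for 4. Both the 108 and the 124 were chosen in this fit on these libraries, so their counts beside the shares of all features are a description.

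In 88 of the 108 features the order of roots and shoot turned with sulfate. In starved controls the root level was below the shoot mean in 102 of the 108, with a median difference of -0.67 on the log2 scale. After sulfate it was above the shoot mean in 94, with a median difference of 0.71. Both held in 88. Of the 47248 features tested, the root level was below the shoot mean in 25170 in controls and above it in 22171 with sulfate, and both held in 2283. Over all of them the median root minus shoot level was -0.04 with sulfate and -0.04 in controls. Measured as a change of level, the fall was larger in the shoot: the median change was -4.09 normalized CPM in roots and -10.6 in the mean of the shoot organs, and the root fall was the larger one in 2 features, PpCO2_70603 and PpCO2_182584, by a small margin and chosen after their values were seen. These levels come from the libraries that the test used and are a description. Levels compared between organs also rest on the authors' scaling, with factors of 1.198 to 1.217 in roots and 0.877 to 1.1 in the shoot organs.

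**Figure D2:**
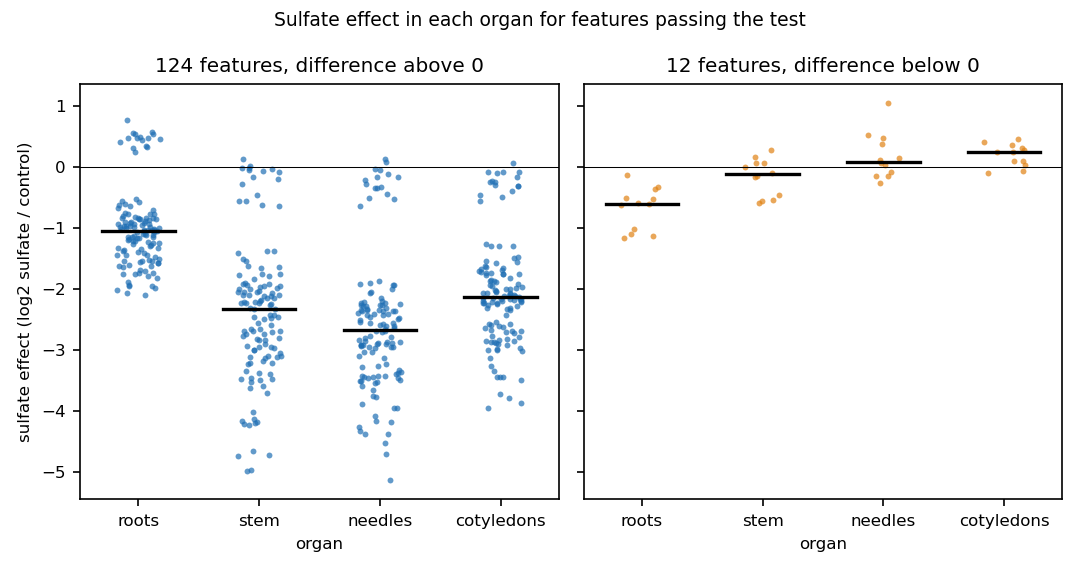
Sulfate effect (log2 sulfate over control) in roots, stem, needles and cotyledons for the 124 features with a difference above 0 (left) and the 12 below 0 (right), 1 point per feature and a black line at the median. On the left the medians are -1.04, -2.32, -2.66 and -2.13, and on the right -0.60, -0.12, 0.09 and 0.24.

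Summed over the 124 features, the level was 894 ± 96.2 in sulfate roots and 1648 ± 112 normalized CPM in control roots (SD, n = 3 each). In stem the sum was 332 ± 21.8 with sulfate and 1982 ± 408 in control. Needles gave 957 ± 36.0 with sulfate and 4605 ± 717 in control, and cotyledons 1223 ± 183 with sulfate and 4375 ± 547 in control. Control needles and cotyledons thus held the highest sums, and sulfate stem the lowest. For the 12 features below 0 the sum was 182 ± 5.29 in sulfate roots and 368 ± 61.5 in control roots. It was 302 ± 20.7 with sulfate against 401 ± 45.4 in control for stem, 196 ± 13.7 with sulfate against 175 ± 8.39 in control for needles and 209 ± 17.1 with sulfate against 178 ± 8.85 in control, in normalized CPM, for cotyledons. With 1 feature per run, the sum of the set above 0 was 524 ± 51.1 in sulfate roots and 879.6 ± 75.7 in control roots, and 413 ± 38.1 in sulfate needles and 2370.0 ± 488 in control needles. Both sets were chosen on these libraries, so the sums carry no test.

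**Figure D3:**
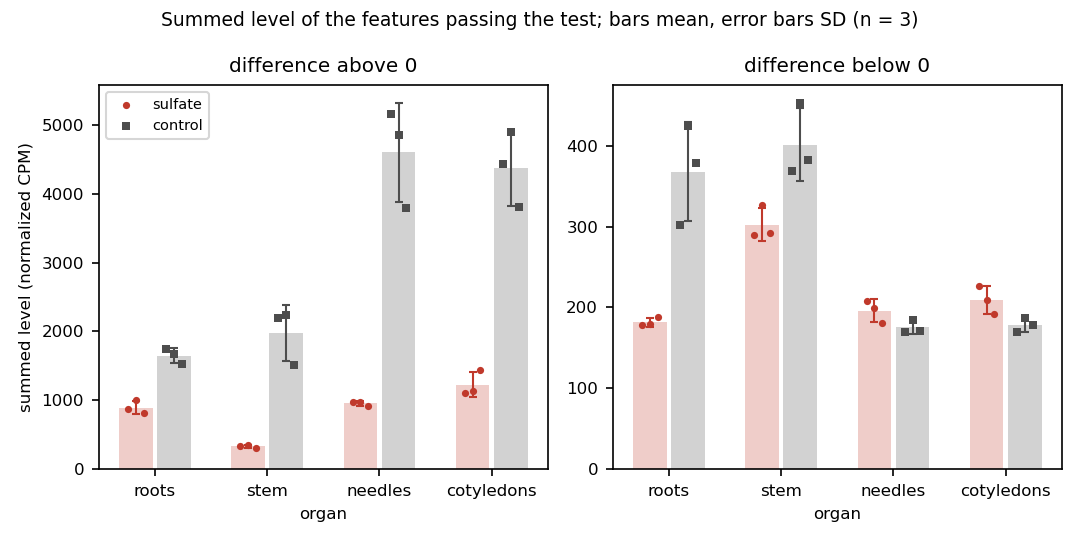
Summed level in normalized CPM of the 124 features with a difference above 0 (left) and the 12 below 0 (right) by organ, sulfate in red and control in grey, with bars for the mean, error bars for the SD of 3 libraries and 1 point per library. On the left the sulfate sums lie below the control sums in every organ, and the gap is narrowest in roots.

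Set against single shoot organs, the difference was called most often for needles, an order that turned with weights per organ (108 above and 8 below 0 for needles, 121 above and 13 below 0 for stem). The root effect was above the needle effect in 119 features (0.252% of those tested) and below it in 13 (0.0275%), above the stem effect in 67 (0.142%) and below it in 1 (0.00212%), PpCO2_55332, and above the cotyledon effect in 25 (0.0529%) and below it in 9 (0.019%; limma interaction contrasts, Benjamini-Hochberg adjusted p under 0.05 in each). PpCO2_55332, chosen after its value was seen, differed from stem by -1.38 ± 0.24 (SE). The 3 contrasts share the root libraries, and the sizes of their lists were not tested against each other. Of the 124 features above 0, 98 passed against needles, 63 against stem and 23 against cotyledons, 16 against all 3 (0.0339% of all features) and 12 against none of them. In 123 of the 124 the estimate lay above 0 against each of the 3 organs, and PpCO2_102494 was the exception. With needles left out of the shoot mean 72 features were above 0 and 5 below it. Without needle sulfate 3 the needle contrast gave 720 features above 0 and 474 below it. Other libraries moved the needle count below 0 too, to 30 without root control 1, 20 without stem control 2 or cotyledon sulfate 3 and 8 without needle sulfate 1.

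The contrasts with stem and cotyledons leaned on more of the libraries. The 67 features above 0 against stem became 35 without root sulfate 1, 21 without root sulfate 2, 34 without root control 2, 26 without root control 3, 43 without stem sulfate 2, 21 without stem sulfate 3, 23 without stem control 1 and 25 without stem control 2. The 25 above 0 against cotyledons became 16 without root sulfate 1, 9 without root sulfate 2, 15 without root sulfate 3, root control 2 or root control 3, 12 without cotyledon sulfate 2 and 11 without cotyledon control 3, but 42 without cotyledon sulfate 3 and 91 without cotyledon control 2. The 9 below 0 against cotyledons ranged from 3 without root sulfate 1, root sulfate 2, root control 2 or cotyledon control 3 to 22 without cotyledon sulfate 3, with 4 without cotyledon control 1, 5 without cotyledon sulfate 1 or 2 and 15 without cotyledon control 2.

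Of the 136 features that passed, PpCO2_136231 had the largest difference in the main fit. Over all features tested the largest was 3.16, which did not pass. The order also depended on the setting: PpCO2_136231 reached at most 3.61 under the other settings, and PpCO2_70606 reached 5.38 with edgeR. PpCO2_136231 stood at 4.28, 2.51 and 3.79 normalized CPM in the 3 sulfate root libraries, against 11.9, 15.9 and 10.7 in the 3 control root libraries. Its stem levels were 0.685, 0.181 and 0.129 with sulfate and 13.7, 23.6 and 8.25 in control. Root and stem controls overlapped, while all sulfate stem values lay below all sulfate root values. Needles held 0.363, 0.265 and 0.115 with sulfate and 23.5, 36.0 and 19.3 in control. Cotyledons held 0.914, 0.391 and 3.06 with sulfate and 17.4, 40.2 and 22.3 in control, and cotyledon sulfate 3 was the highest of its group. Sulfate values lay below control values in every organ, with no overlap. The effect was -1.74 ± 0.44 in roots and -4.42 ± 0.25 in the shoot mean, a log2 difference of 2.68 ± 0.50 with its SE (limma, Benjamini-Hochberg adjusted p = 0.0193). The root fall itself did not pass in this fit (limma, Benjamini-Hochberg adjusted p = 0.0729). The difference lost its call without root sulfate 1, root sulfate 3, root control 1 or root control 3, where the adjusted p reached 0.104 in limma. It was also lost with a pseudocount of 2, where it was 1.72, or without needles in the shoot mean.

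PpCO2_52659 showed the same order of organs with a narrower spread. It stood at 2.34, 3.63 and 2.52 normalized CPM in sulfate roots and 10.9, 10 and 7.21 in control roots. In stem the levels were 0.460, 0.390 and 0.469 with sulfate and 18.1, 19.5 and 8.76 in control. Control levels of roots and stem again overlapped, and their sulfate levels did not. Needle levels were 0.117, 0.187 and 0.0417 with sulfate and 14.7, 23.1 and 10.6 in control. In cotyledons 0.956, 0.543 and 1.85 were found with sulfate and 15.4, 19.2 and 11 in control. No organ showed overlap, and the lowest value of all was the 4 reads of needle sulfate 3. The effect was -1.57 ± 0.32 in roots (limma, Benjamini-Hochberg adjusted p = 0.0168) and -4.01 ± 0.18 in the shoot mean, a difference of 2.44 ± 0.37 (limma, Benjamini-Hochberg adjusted p = 0.00266). It passed without any single library and under all 12 other settings, where its size ranged from 1.53 with a pseudocount of 2 to 3.61 with edgeR. Against single organs it passed for needles (3.13) and stem (2.44) but not for cotyledons (1.76; limma, Benjamini-Hochberg adjusted p = 0.299).

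PpCO2_156042, which belongs to a run of 7 features with adjacent numbers and parallel levels, had 1.97, 3.17 and 2.37 normalized CPM in sulfate roots and 10.1, 11.3 and 7.37 in control roots. Stem gave 0.225, 0.152 and 0.0552 with sulfate and 12.2, 15.4 and 6.94 in control. Sulfate roots thus kept more than any sulfate library of stem. Levels in needles were 0.164, 0.132 and 0.219 with sulfate and 14.3, 20.1 and 11.2 in control. Levels in cotyledons were 0.436, 0.456 and 1.34 with sulfate and 10.4, 17.1 and 10.3 in control. The groups did not overlap in any organ, and needle and stem sulfate values were the lowest. The effect of -1.74 ± 0.29 in roots passed (limma, Benjamini-Hochberg adjusted p = 0.00347), and the shoot mean was -4.03 ± 0.17. The difference of 2.29 ± 0.34 (limma, Benjamini-Hochberg adjusted p = 0.00208) passed without any single library and under all 12 other settings, where its size ranged from 1.30 with a pseudocount of 2 to 3.67 with edgeR.

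**Figure D4:**
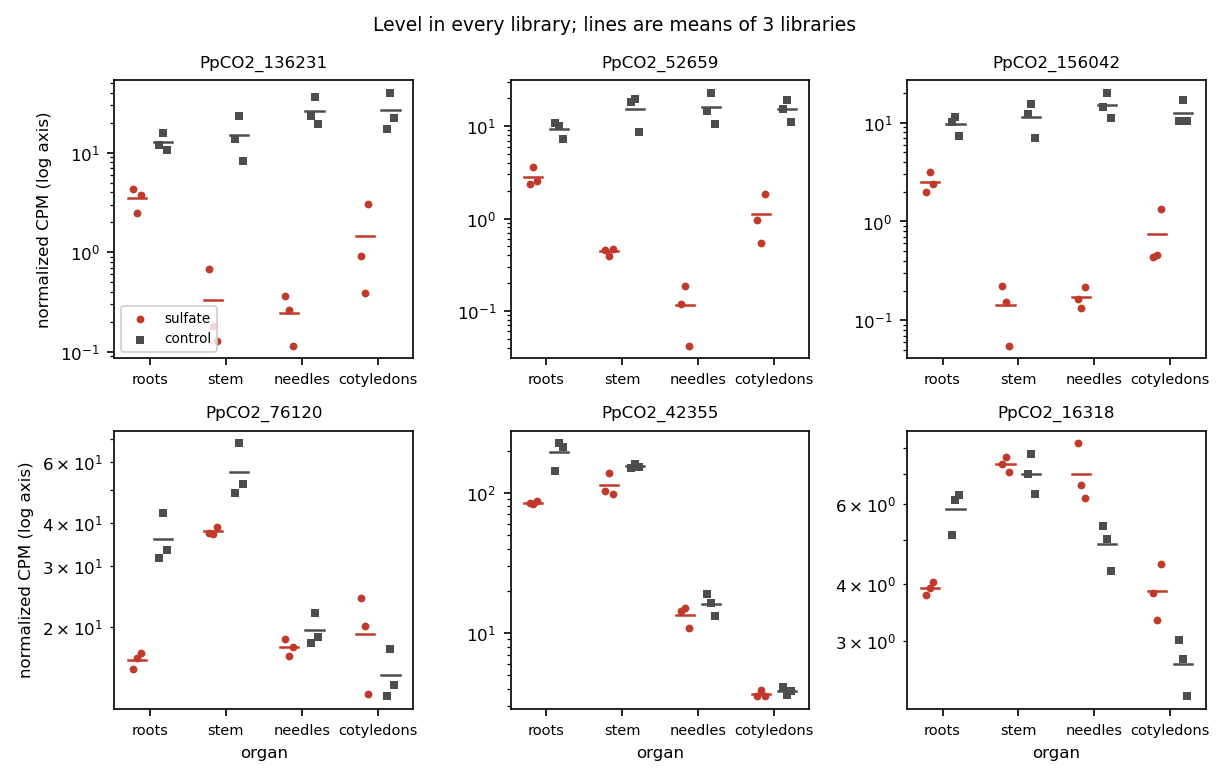
Normalized CPM (log axis) in every library for the 3 named features with the largest difference above 0 (top row) and the 3 named features with the largest below 0 (bottom row). Values are by organ, sulfate in red and control in grey, with lines at the means of 3 libraries. In the top row the sulfate values of roots lie above those of stem and needles; in the bottom row the sulfate values of roots lie below their controls.

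Among the next features by size, PpCO2_70606 was nearly silent in sulfate stem and needles. It averaged 3.45 ± 1.04 in sulfate roots and 9.35 ± 2.07 normalized CPM in control roots (SD, n = 3 each). Sulfate stem held 1 to 2 reads per library and sulfate needles 0 to 7, against control means of 5.08 ± 2.27 in stem and 10.7 ± 4.06 normalized CPM in needles. Sulfate levels of stem and needles were therefore at or near the level of 3 reads. The difference was 2.22 ± 0.34 (limma, Benjamini-Hochberg adjusted p = 0.00323), and its size differed with the setting: it was 3.73 with a pseudocount of 0.1, 5.38 with edgeR and 0.99 with a pseudocount of 2, where the call was lost (limma adjusted p = 0.211). PpCO2_77919 stood out by its organ levels. Its means were 3.47 ± 0.920 in sulfate roots and 5.74 ± 0.598 in control roots, against 16.8 ± 2.24 in sulfate needles and 190.3 ± 52.9 normalized CPM in control needles. Roots thus held far less of it than needles under both treatments, and the root effect of -0.67 did not pass (limma, Benjamini-Hochberg adjusted p = 0.269). Its difference of 2.01 ± 0.26 passed without any single library (limma adjusted p at most 0.00512).

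Of the 16 features that passed against each shoot organ separately, PpCO2_136229 and PpCO2_136234, chosen after their values were seen, had the largest differences from the shoot mean, at 2.17 and 2.14 log2 units. They belong to the run of PpCO2_136231, which itself did not pass against stem or cotyledons. PpCO2_133853 and PpCO2_133847 were the 2 largest among the features that lead their run, of which 7 passed against all 3. The numbers of both lie between 133841 and 133867, where 19 of 20 tested features passed the main test, so they may not be separate observations. PpCO2_133853 averaged 2.27 ± 0.240 in sulfate roots and 3.83 ± 0.719 in control roots, and 0.285 ± 0.0653 in sulfate needles and 5.99 ± 1.11 normalized CPM in control needles. Its root effect lay above those of stem, needles and cotyledons by 1.51, 2.40 and 1.90 log2 units (limma, Benjamini-Hochberg adjusted p = 0.0478, 0.000256 and 0.0107). PpCO2_133847 averaged 1.55 ± 0.181 in sulfate roots and 2.43 ± 0.277 normalized CPM in control roots, with differences of 1.52, 2.32 and 1.90 (limma, Benjamini-Hochberg adjusted p = 0.0487, 0.000497 and 0.0127). With a pseudocount of 2 their differences from the shoot mean were 1.18 for PpCO2_133853 and 1.06 for PpCO2_133847. Against the shoot mean both passed without any single library, with limma adjusted p of at most 0.00343 and 0.00416. No feature below 0 passed against all 3 organs.

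PpCO2_37581, PpCO2_37562, PpCO2_37569 and PpCO2_37567 have identifiers within 20 numbers of each other and were among the more abundant of the named features. Each was counted as a run of its own. Their levels followed a similar pattern across the libraries, so they may not be separate observations. Their means were 40.0, 45.0, 18.4 and 32.3 in sulfate roots, in that order, and 75.7, 86.0, 35.6 and 60.3 normalized CPM in control roots. In needles the means were 18.2, 20.4, 8.46 and 15.6 with sulfate and 212, 239, 98.9 and 171 in control. No root fall of the 4 passed (limma, Benjamini-Hochberg adjusted p at least 0.21). All 4 stood higher in starved needles than in starved roots, and lower in sulfate needles than in sulfate roots. Differences were 2.20 ± 0.36, 2.14 ± 0.39, 2.01 ± 0.34 and 1.98 ± 0.40 (limma, Benjamini-Hochberg adjusted p = 0.00546, 0.0157, 0.00876 and 0.0359). PpCO2_37581 passed without any single library. PpCO2_37562 was lost without root sulfate 1, root sulfate 2, root control 2 or root control 3, and PpCO2_37569 without root sulfate 2 or root control 3. PpCO2_37567 was lost in 15 of the 24 cases, PpCO2_121366 in 10, and in these 2 all sulfate root libraries and root controls 2 and 3 were among them. Without needles in the shoot mean PpCO2_37562, PpCO2_37569, PpCO2_37567 and PpCO2_121366 lost their calls, without stem PpCO2_37562, PpCO2_37567 and PpCO2_121366, and with a pseudocount of 2 PpCO2_121366. PpCO2_121366 averaged 10.6 ± 1.61 in sulfate roots, 23.7 ± 2.79 in control roots, 4.65 ± 1.70 in sulfate needles and 57.0 ± 11.8 normalized CPM in control needles, and differed by 1.88 ± 0.37 (limma, Benjamini-Hochberg adjusted p = 0.03).

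The other 16 features above 0 had a root estimate above 0, between 0.25 and 0.77 on the log2 scale, with a shoot mean between -0.51 and 0.02. They were smaller changes, with higher median levels in roots than the 108 but lower ones in each control shoot organ. The median level was 14.0 in sulfate roots and 10.1 normalized CPM in control roots, and the median difference was 0.70. In 3 features the roots rose and the shoot mean fell, each passing its own test, and in 6 more only the root rise passed. In another 6 only the shoot fall passed, and in 1, PpCO2_54204, neither part did. The 3 were PpCO2_123013, PpCO2_14429 and PpCO2_14430, the last 2 chosen after their values were seen. Rises in roots passed in 0.148% of all features tested and falls of the shoot mean in 2.43%. PpCO2_123013 was the largest of its kind that the naming rule allowed. It had 13.2, 14.7 and 12.5 normalized CPM in sulfate roots and 9.78, 9.33 and 10.9 in control roots. Stem held 4.11, 4.48 and 5.11 with sulfate and 4.87, 4.74 and 4.31 in control. Root levels with sulfate lay above all root controls, and stem levels overlapped. Needles gave 4.21, 3.74 and 4.25 with sulfate and 6.54, 7.31 and 5.90 in control. Cotyledons gave 6.42, 6.83 and 6.47 with sulfate and 8.32, 9.03 and 10.2 in control. Sulfate needles and cotyledons lay below their controls with no overlap. The root rise of 0.41 ± 0.097 (limma, Benjamini-Hochberg adjusted p = 0.0486) and the shoot fall of -0.37 ± 0.056 (limma, Benjamini-Hochberg adjusted p = 0.000301) gave a difference of 0.78 ± 0.11 (limma, Benjamini-Hochberg adjusted p = 0.00157), which passed without any single library.

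PpCO2_97013 was a root rise without a shoot change that passed. Its levels were 13.1, 9.91 and 11.1 normalized CPM in sulfate roots and 5.26, 6.77 and 7.42 in control roots. Stem levels were 1.64, 1.75 and 1.91 with sulfate and 1.93, 1.71 and 2.07 in control. Only roots kept the treatments apart, and roots held the highest levels under both. In needles 2.50, 1.80 and 1.88 were measured with sulfate and 1.86, 1.71 and 1.89 in control. In cotyledons 1.98, 2.12 and 1.78 were measured with sulfate and 2.04, 2.17 and 2.14 in control. Needle and cotyledon values overlapped. The root effect was 0.77 ± 0.12 (limma, Benjamini-Hochberg adjusted p = 0.00229), the shoot mean -0.01 ± 0.072 and the difference 0.78 ± 0.14 (limma, Benjamini-Hochberg adjusted p = 0.0145), lost without root sulfate 1 or root control 1. Against stem, needles and cotyledons singly it did not pass (limma, Benjamini-Hochberg adjusted p = 0.0644, 0.216 and 0.0929). Of the 6 features of this pattern, 5 passed against no single organ. PpCO2_54204 differed although neither part passed. It stood at 10.8, 12.2 and 10.7 in sulfate roots and 8.23, 8.41 and 7.78 normalized CPM in control roots. Its stem values, 4.42, 5.05 and 4.69 with sulfate and 4.85, 4.65 and 4.91 in control, overlapped. Sulfate roots thus lay above control roots, and stem did not part. Its needle values were 3.75, 3.82 and 4.99 with sulfate and 5.32, 5.71 and 5.31 in control. Its cotyledon values, 2.90, 3.01 and 3.88 with sulfate and 3.37, 3.14 and 3.88 in control, overlapped. Sulfate needles lay below control needles. The difference was 0.59 ± 0.12 (limma, Benjamini-Hochberg adjusted p = 0.0368). It was lost when any of the 6 root libraries was left out and in 12 of 18 cases without a shoot library. Leaving needles out of the shoot mean also ended the call.

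PpCO2_14428 to PpCO2_14431, chosen after their values were seen, form a run of 4 neighbours whose 4 members all had an estimate above 0 in roots and below 0 in the shoot mean. PpCO2_14429 averaged 42.5 ± 6.25 in sulfate roots and 28.2 ± 1.38 normalized CPM in control roots (SD, n = 3 each). In stem it averaged 11 ± 0.804 with sulfate and 16.4 ± 1.57 in control. Needles and cotyledons held the most, at 83.7 and 90.8 with sulfate and 105 and 112 in control. Its difference of 0.97 ± 0.13 passed (limma, Benjamini-Hochberg adjusted p = 0.000508), as did those of the other members, at 0.84, 0.86 and 1.05 (limma, Benjamini-Hochberg adjusted p = 0.00781, 0.00182 and 0.0108). The members' levels are correlated, so they are not separate observations.

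The other 12 features, in 10 runs of neighbours, went the other way, with a sulfate effect lower in roots than in the shoot mean. Against single organs 5 of the 12 passed for needles, 5 for cotyledons and 0 for stem, and 3 passed for no organ. In 8 of the 12 the roots fell and the shoot mean did not pass, and in 1 (PpCO2_16318) the roots fell and the shoot rose. In 2 (PpCO2_139333 and PpCO2_24036) only the shoot rise passed, and in 1 (PpCO2_132288) neither part did. Falls in roots passed in 0.745% of all features tested and rises of the shoot mean in 1.87%. All 12 had the lowest effect of the 4 organs in roots. The count depended on single libraries: it was 1 without root control 2, 3 without root sulfate 1, root sulfate 2 or root control 3, 4 without root sulfate 3, 6 without needle sulfate 2, 7 without stem sulfate 2 or 3, 20 without needle sulfate 3, and 28 without root control 1 or stem control 2. PpCO2_76120, in a run of 4 identifiers of which 3 passed, had the largest difference of the 12. It stood at 15.1, 16.3 and 16.8 normalized CPM in sulfate roots and 31.7, 42.9 and 33.5 in control roots. Stem levels stood at 37.4, 37.3 and 39.1 with sulfate and 49.0, 68.2 and 52.1 in control. Roots and stem were both lower with sulfate, without overlap. Needle values were 18.5, 16.5 and 17.5 with sulfate and 18, 22 and 18.7 in control. Cotyledon values were 24.3, 20.2 and 12.8 with sulfate and 12.6, 17.3 and 13.6 in control. Needles and cotyledons overlapped between treatments. The root fall of -1.13 ± 0.17 passed (limma, Benjamini-Hochberg adjusted p = 0.00158), the shoot mean of -0.12 ± 0.10 did not (limma, Benjamini-Hochberg adjusted p = 0.557), and the difference was -1.01 ± 0.20 (limma, Benjamini-Hochberg adjusted p = 0.0283). Against single organs it passed for cotyledons alone (-1.48). It was lost without any sulfate root library, root control 2, root control 3 or needle control 1, and with needles or cotyledons left out of the shoot mean.

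PpCO2_42355 was the most abundant of the features below 0. It had 84.9, 82.6 and 87.0 normalized CPM in sulfate roots and 143, 225 and 213 in control roots. In stem it had 103, 139 and 98.1 with sulfate and 149, 161 and 153 in control. Both organs lay lower with sulfate, roots by the wider margin. In needles it had 14.4, 15.1 and 10.8 with sulfate and 19, 16.4 and 13.2 in control. In cotyledons it had 3.58, 3.90 and 3.53 with sulfate and 4.10, 3.6 and 3.84 in control. Needles and cotyledons held little of it and overlapped between treatments. Its root effect was -1.16 ± 0.16 (limma, Benjamini-Hochberg adjusted p = 0.000414) and its difference -0.90 ± 0.18 (limma, Benjamini-Hochberg adjusted p = 0.0334). Against single shoot organs the difference did not pass for any. The call was lost in 13 of 24 cases without a library, among them all 3 sulfate root libraries and root controls 2 and 3. It was also lost with needles or cotyledons left out of the shoot mean.

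PpCO2_16318 moved in opposite directions. Roots held 3.78, 3.93 and 4.05 normalized CPM with sulfate and 5.13, 6.12 and 6.30 in control. In stem the values were 7.35, 7.62 and 7.07 with sulfate and 6.98, 7.73 and 6.33 in control. Root values were lower with sulfate without overlap, and stem values overlapped. Needles had 8.18, 6.62 and 6.19 with sulfate and 5.38, 5.04 and 4.27 in control. Cotyledons had 3.82, 3.34 and 4.43 with sulfate and 3.01, 2.74 and 2.26 in control. Needles and cotyledons were higher with sulfate, without overlap. The root fall was -0.52 ± 0.12 (limma, Benjamini-Hochberg adjusted p = 0.0407), the shoot rise 0.33 ± 0.069 (limma, Benjamini-Hochberg adjusted p = 0.00735) and the difference -0.85 ± 0.14 (limma, Benjamini-Hochberg adjusted p = 0.00475), which passed without any single library and under all 11 other settings that tested it. PpCO2_139333 was a shoot rise with no change that passed in roots. Its root values, 3.87, 3.77 and 3.86 with sulfate and 4.06, 4.90 and 3.86 normalized CPM in control, overlapped. Its stem values were 7.37, 8.02 and 7.08 with sulfate and 6.41, 5.56 and 6.27 in control. Stem was higher with sulfate by a small margin. In needles the levels were 30.9, 31.6 and 27.6 with sulfate and 16.8, 12.1 and 14.3 in control. In cotyledons the levels were 13.9, 14.6 and 17.3 with sulfate and 11.2, 10.4 and 12.5 in control. Needles showed the widest gap, and none of the 3 shoot organs overlapped. The needle rise was 1.04 log2 units (limma, Benjamini-Hochberg adjusted p = 2.33e-06) and the root effect -0.13 ± 0.11. The difference was -0.71 ± 0.13 (limma, Benjamini-Hochberg adjusted p = 0.0119), lost without root sulfate 2, root control 2 or needles in the shoot mean (limma adjusted p = 0.424 for the last).

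The remaining named features below 0 were small changes. PpCO2_74180 averaged 2.61 ± 0.278 in sulfate roots and 4.25 ± 0.235 normalized CPM in control roots (SD, n = 3 each), a root fall that passed (limma, Benjamini-Hochberg adjusted p = 0.00654). PpCO2_154666 averaged 10 ± 1.31 in sulfate roots and 15.3 ± 1.35 in control roots, and PpCO2_176184 8.18 ± 0.423 in sulfate roots and 12.8 ± 1.47 in control roots. PpCO2_48348 averaged 1.64 ± 0.291 in sulfate roots and 2.52 ± 0.187 in control roots. In these 4 features the sulfate values of roots lay below all root controls, and the shoot mean lay between 0.02 and 0.09 on the log2 scale. Differences of the 4 were -0.70, -0.66, -0.63 and -0.52, in the same order (limma, Benjamini-Hochberg adjusted p = 0.0144, 0.0304, 0.0331 and 0.043). PpCO2_24036 was the other feature of which only the shoot rise passed, at 0.20 ± 0.053 (limma, Benjamini-Hochberg adjusted p = 0.0315), with 17 ± 3.11 in sulfate needles and 11.6 ± 0.129 normalized CPM in control needles. Stem went the other way by estimate, with 13.1 ± 0.939 in sulfate stem and 14.6 ± 0.336 in control stem and no overlap (-0.15; limma, Benjamini-Hochberg adjusted p = 0.797), and all sulfate root values also lay below all root controls. Its difference was -0.56 ± 0.11 (limma, Benjamini-Hochberg adjusted p = 0.0179). Calls were lost without 3 root libraries for PpCO2_74180 (sulfate 3, control 2 and control 3) and without 4 for PpCO2_24036 (sulfate 1, sulfate 3, control 2 and control 3), and in 8, 15 and 17 of 24 cases for PpCO2_154666, PpCO2_176184 and PpCO2_48348. Leaving needles out of the shoot mean also ended the calls of PpCO2_154666, PpCO2_176184, PpCO2_48348 and PpCO2_24036, leaving cotyledons out those of PpCO2_154666 and PpCO2_176184, leaving stem out that of PpCO2_48348, and a pseudocount of 2 those of PpCO2_176184 and PpCO2_48348 (-0.33 for PpCO2_48348). PpCO2_132288 had 1.89, 2.00 and 1.98 normalized CPM in sulfate roots and 2.58, 2.60 and 2.55 in control roots. Stem showed 2.17, 2.19 and 2.32 with sulfate and 2.28, 2.04 and 1.98 in control. Root replicates lay close together and did not overlap between treatments, while those of stem did. Needles showed 6.39, 6.22 and 5.70 with sulfate and 4.05, 4.95 and 4.85 in control. Cotyledons showed 7.28, 8.47 and 8.21 with sulfate and 7.35, 6.72 and 8.31 in control. Needles were higher with sulfate without overlap, and cotyledons overlapped. Neither part passed, and the difference of -0.50 ± 0.10 (limma, Benjamini-Hochberg adjusted p = 0.0358) was lost in 15 of 24 cases without a library, with all 6 root libraries among them, and with a pseudocount of 2, either block or needles left out of the shoot mean.

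Root level minus mean shoot level within a treatment and replicate number was taken for each number in turn, although the labels do not say that a number marks shared plants. For PpCO2_136231 it was 2.08, 1.96 and 1.95 on the log2 scale in sulfate pools 1 to 3, against -0.55, -1.01 and -0.49 in control pools 1 to 3. PpCO2_52659 gave 1.58, 2.26 and 1.49 in sulfate pools and -0.54, -1.0 and -0.45 in control pools. In both features roots lay below the shoot mean in every control pool and above it in every sulfate pool. PpCO2_77919 gave -1.90, -1.55 and -2.06 in sulfate pools and -4.15, -4.0 and -3.41 in control pools, so roots stayed below the shoot mean throughout. PpCO2_70606 gave 2.63, 3.10 and 2.19 in sulfate pools and 0.59, 0.05 and 0.63 in control pools, so roots were above it throughout. Among features below 0, PpCO2_76120 gave -0.74, -0.50 and -0.30 in sulfate pools and 0.49, 0.52 and 0.49 in control pools. The naming rule required that the pools did not overlap, so the separation of the named features is not a result.

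**Figure D5:**
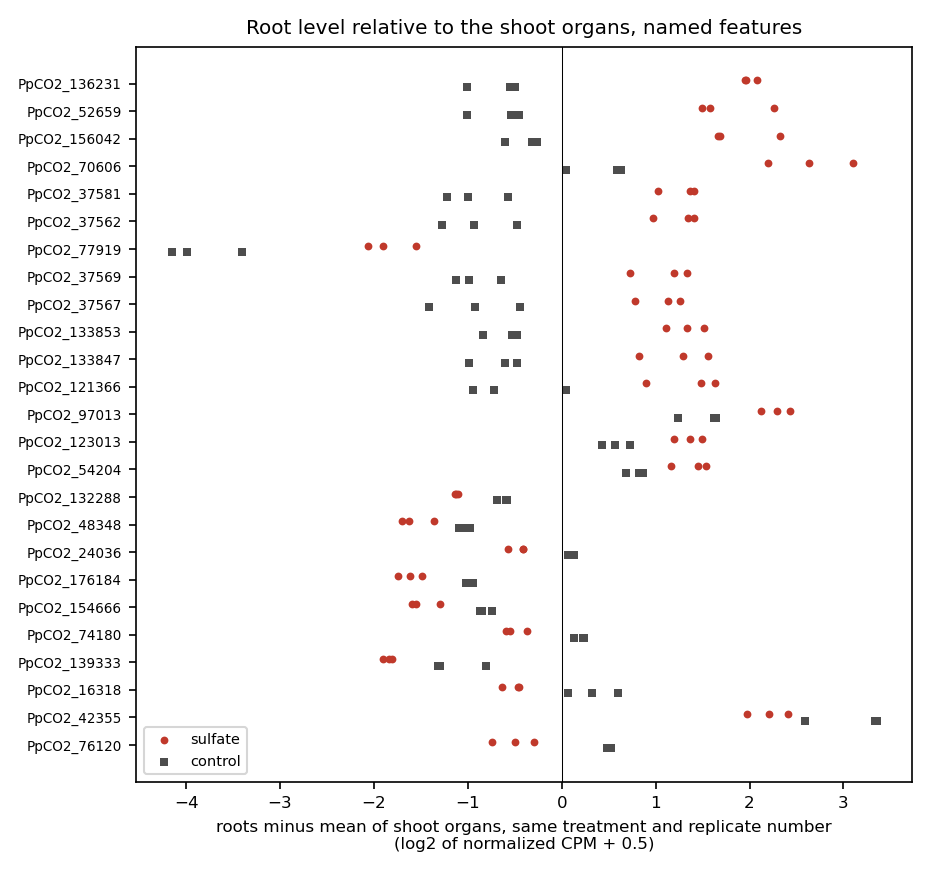
Root level minus the mean level of stem, needles and cotyledons of the same treatment and replicate number (x axis, log2 of normalized CPM + 0.5) for the 25 named features, ordered by the difference of sulfate effects with the largest at the top, 3 sulfate pools in red and 3 control pools in grey. The sulfate points lie to the right of the control points in the upper 15 features and to the left in the lower 10.

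For most features the data bound the difference. The 95% interval lay within 2-fold in either direction for 44188 of 47248 features (93.5%), and the median half-width of the interval was 0.29 on the log2 scale. Of the 47112 features that did not pass, 44173 had such an interval, and for the other 2939 a difference of 2-fold or more remained within it. At an unadjusted p under 0.05, 1693 features were above 0 and 1414 below it. Features without any difference would also pass that threshold, at an expected rate of 0.05, so these numbers are not counts of differences.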

How the data were processed

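RNA of 24 libraries (poly(A)-enriched, random-primed, paired 150 bp reads, no stranded kit described, per the labels' protocols) was measured in roots, stem, needles and cotyledons, 3 libraries per organ and treatment. Tools named in the submitters' processing notes are bcl2fastq and BWA. The counter, reference transcripts, scaling and filters were not stated in the sources used here. The authors deposited a signal per feature, CPM of a scaled library size: 100% of values came out whole, within 0.01, once divided by the size of 1 read in their library, which gives 92664463 to 195881948 reads per library. A count of 3 reads corresponds to 0.0165 to 0.0351 normalized CPM, for counting error only. For needle control 2 the size of 1 read is near 0.01 and rounding could look the same. Reads of near-identical copies, overlapping genes or antisense transcripts may have been split or shared, which limits how far a single feature can be read.

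Recovered reads of replicate libraries gave chi-square values of 11.0 to 68.8 per feature, more than counting noise, and each library was kept as a separate sample. Groups and numbers come from the labels, and p-values measure the spread between 3 pools a group. The main fit takes libraries of different organs as independent. Same-numbered libraries tended to deviate together across organs, so p-values of the shoot mean may be too small. Features with at least 1 normalized CPM in at least 3 of 6 libraries of every organ were fitted with limma (1 mean per group, 24 libraries, empirical Bayes with trend and robust settings) on log2(value + 0.5), which understates changes of low features. Contrasts were the difference of sulfate effects, its 2 parts and roots against each organ, with Benjamini-Hochberg adjustment over 47248 features and a threshold of 0.05. Fold changes and levels of separate organs come from this fit, which assumes 1 spread for all organs. Features were named as the 12 largest in each direction among those passing, with pools not overlapping, a mean of at least 2 in 1 group and 1 feature per run of neighbours (numbers at most 2 apart, Pearson correlation over 0.8). Below 0 only 10 met this. Also named were the largest of each pattern of the 2 parts, and, among features that lead their run, the 2 largest in each direction passing against all 3 organs (none below 0). The contrast, members and lists were chosen with earlier results of these data known.

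Alternatives were 2 other pseudocounts, 2 other filters, median-ratio scaling, edgeR's quasi-likelihood test on recovered reads, weights per organ, 2 blocks, leaving each shoot organ out of the mean and leaving out each library, with the tested features kept. The tests had been laid out for plain CPM, and limma on the log2 scale was kept for the scaled values. The fits were tested on simulated reads. Tools were R 4.3.3, limma 3.58.1, edgeR 4.0.16, Python 3.11.15 and matplotlib 3.10.9.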

Additional observations from a re-analysis of the deposited data

Results flagged for a closer look

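Roots and shoot organs differed in their sulfate effect by a direct test of the difference (limma interaction contrast, Benjamini-Hochberg adjusted p under 0.05) for 124 features above 0 and 12 below 0, and for each named feature. Among features that fell in both or in the shoot with roots not passing, the log2 difference of roots minus shoot was 2.68 for PpCO2_136231, 2.44 for PpCO2_52659, 2.29 for PpCO2_156042, 2.22 for PpCO2_70606, 2.20 for PpCO2_37581 and 2.14 for PpCO2_37562. It was 2.01 for PpCO2_77919, 2.01 for PpCO2_37569, 1.98 for PpCO2_37567, 1.94 for PpCO2_133853, 1.91 for PpCO2_133847 and 1.88 for PpCO2_121366. For features whose root estimate lay above 0 the difference was 0.78 for PpCO2_123013, 0.59 for PpCO2_54204 and 0.78 for PpCO2_97013. Below 0, where roots fell more or the shoot rose, it was -1.01 for PpCO2_76120, -0.90 for PpCO2_42355, -0.85 for PpCO2_16318, -0.71 for PpCO2_139333 and -0.70 for PpCO2_74180. The smallest of those were -0.66 for PpCO2_154666, -0.63 for PpCO2_176184, -0.56 for PpCO2_24036, -0.52 for PpCO2_48348 and -0.50 for PpCO2_132288.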

How the results depend on the processing

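All 136 features kept their direction under every setting that tested them. Of the 25 named features, edgeR, median-ratio scaling, a pseudocount of 0.1, no filter and weights per organ kept 25 past the threshold. The minimum of 5 tested 13 of them and kept 13. Settings that ended calls were a pseudocount of 2 (6 of 25), each block (1, PpCO2_132288) and leaving needles (14), stem (4) or cotyledons (4) out of the shoot mean. Leaving out 1 library ended up to 14 of the 25 calls (14 without root control 3, 13 without root sulfate 1 or root control 2, 12 without root sulfate 2 and 10 without root sulfate 3), at most 6 where it was a shoot library, and 0 without needle control 3. Counts above and below 0 against the shoot mean were 136 and 17 with edgeR, 133 and 17 with a pseudocount of 0.1, 112 and 12 with a pseudocount of 2, and 120 and 12 with median-ratio scaling. They were 229 and 58 with no filter, where more features are tested (139 of the calls are on features outside the 47248), and 62 and 7 with a minimum of 5, where fewer are. With weights per organ they were 163 and 24. They were 118 and 22 without stem in the shoot mean, 72 and 5 without needles and 133 and 6 without cotyledons.

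Roots against stem gave 3 below 0 with a pseudocount of 0.1 and with edgeR, 12 with no filter and 13 with weights, beside 121 above 0 with weights. A pseudocount of 2 gave 32 above and 0 below in limma (742 below at an unadjusted p under 0.05), and a minimum of 5 gave 39 above. Roots against needles gave 188 and 42 with no filter, 60 and 5 with a minimum of 5, and 8 below 0 with weights. Roots against cotyledons gave 58 and 28 with no filter, and above 0 gave 9 with a minimum of 5, 14 with a pseudocount of 0.1 and 15 with edgeR. Root rises and falls numbered 305 and 649 with no filter and 264 and 660 with weights, and root falls 210 with a minimum of 5. Shoot falls numbered 742 with a minimum of 5, and shoot rises 579 with weights. Intervals within 2-fold numbered 21894 with a minimum of 5. Apart from the filters, the cause of these changes was not tested.

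Deviations of same-numbered libraries of a treatment correlated at -0.017 to 0.463 across organs (median 0.276), over 0.1 in 34 of 36 pairs but not in all. For libraries of a treatment with other numbers they correlated at -0.373 to 0.164 (median -0.145), over 0.1 in 2 of 72 pairs. The labels do not say what a number marks, so the numbers were not taken as pairs in the tests. Root minus shoot levels of single pools, which the naming rule used, were arranged by number all the same. With the replicate number as a block, the counts were 148 above and 21 below 0 against the shoot mean, 2 below against stem, 25 below against needles, 126 root rises and 1467 shoot rises. With treatment and number as a pool block, they were 170 and 46 against the shoot mean, 4 below against stem, 41 below against needles, and 56 and 32 against cotyledons.

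Leaving out 1 library gave 70 to 155 features above and 1 to 28 below 0 against the shoot mean, 21 to 82 and 0 to 3 against stem (0 in 6 of the 24 limma fits, with 476 to 1008 below at an unadjusted p under 0.05), 83 to 720 and 8 to 474 against needles, and 9 to 91 and 3 to 22 against cotyledons. Root rises ranged from 16 to 99 and root falls from 145 to 495, shoot rises from 547 to 1956 and shoot falls from 829 to 2230, and intervals within 2-fold from 43386 to 44613. Shoot counts were highest without needle sulfate 3. EdgeR gave no interval, and the pool block no value for roots or the shoot mean alone. At low sulfate levels the size of the largest falls depended on the setting. The difference of PpCO2_70606 ranged from 0.99 with a pseudocount of 2 to 5.38 with edgeR. Few reads also lay behind some of the low levels.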

Other observations

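Read from the side of each organ, the shoot mean fell in 1150 features and rose in 885 (limma, Benjamini-Hochberg adjusted p under 0.05). Of the 1150 falls, 117 (10.2%) also differed from roots, all above 0, and of the 290 that were at least 2-fold, 108 did. Of the 885 shoot rises, 3 (0.339%) differed from roots, all below 0. Roots fell in 352 features, of which 88 differed above 0 and 9 below it, and rose in 70, of which 9 differed above 0. Over all features tested 0.288% differed. These lists share libraries with the test of the difference, so the shares are a description. The list of shoot falls was 2230 and that of rises 1956 without needle sulfate 3. Root falls numbered 145 without root control 2, 156 without root sulfate 1 and 190 without root sulfate 2, and root rises 16 without root sulfate 1 or root control 2, 19 without root sulfate 2, 42 without root control 3 and 44 without root sulfate 3. Shoot rises numbered 547 to 576 without needle control 2, needle sulfate 2, stem control 2, stem sulfate 2 or cotyledon control 3.

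Several stretches of neighbouring identifiers held more than 1 of the 136 features. With gaps of up to 20 numbers allowed, a limit chosen after the values were seen, they form 52 stretches, of which 31 hold 1 feature and the 5 longest hold 53. The longest runs from 133841 to 133867, where 19 of 20 tested features passed, all above 0, with differences of 0.92 to 1.94 on the log2 scale. All 8 tested features from 136228 to 136235 passed (1.58 to 2.68), as did all 9 from 106657 to 106666 (0.99 to 1.31). Other long stretches were passed in part, with 9 of 21 from 2800 to 2821 (1.07 to 1.81) and 8 of 20 from 54554 to 54573 (0.98 to 1.33). From 24036 to 24045 all 7 passed, 6 of them above 0 and 1, PpCO2_24036, below it. In the stretch from 37562 to 37581, 6 of 16 passed. Each stretch begins and ends at a feature that passed, which raises these shares. They are a description, beside 0.288% of all features tested. What neighbouring numbers mean is not given in the files.

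Some libraries lay at an end of their groups over the 124 features above 0. The 124 form 55 runs, so these counts are not over separate observations. Needle control 3 was the lowest of its group in 107 of them (86.3%, against 27.1% of all features tested) and stem control 3 in 101 (81.5%, against 32.7%). Root control 3 was the lowest of its group in 75 (60.5%, against 33.7%) and cotyledon control 3 in 72 (58.1%, against 32.1%). Cotyledon sulfate 3 was the highest of its group in 90 (72.6%, against 35.8%) and root sulfate 2 in 86 (69.4%, against 33.5%). The counts above without a single library also come from fits with fewer libraries. How much of the result rests on any of these libraries was not tested.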
